A study of Mus musculus with 6 samples.

Results

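The immunoglobulin and B cell receptor genes examined here were 8 named genes, Ighm, Igha, Igkc, Ighv1-82, Igkv1-122, Igj, Cd79a and Cd79b, of 26216 gene symbols in the deposited tables. They were found by symbol, and they had been chosen by the difference between Ltbr-/- and Ly5.1 cells in these same samples. Their differences between the groups are therefore given as a description with no test. RNA was sequenced from LT/ST-HSCs, hematopoietic stem cells of the bone marrow sorted for sca1, c-kit and CD150 and against lineage markers, Annexin V and CD48, 6 weeks after a first transplantation. Ltbr-/- cells (CD45.2) lack the lymphotoxin beta receptor, and Ly5.1 cells (CD45.1) carry the receptor and served as controls. LSKs, the stem and progenitor fraction, of both genotypes had been mixed and given to the same lethally irradiated Ly5.1/Ly5.2 recipients, and chimeras were pooled to 3 biological replicates per genotype. Donors of the Ltbr-/- replicates were 10 to 13 weeks old and those of the Ly5.1 replicates 7 to 13 weeks old. The 2 groups differ in the CD45 allele and in the origin of the donors as well as in Ltbr, and these cannot be told apart from the loss of the receptor.

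An antibody is made of 2 heavy and 2 light chains, each with a variable domain encoded by joined V, (D) and J segments and a constant part encoded by a gene such as Ighm, Igha or Igkc. On B cells the heavy and light chains sit in the membrane with Cd79a and Cd79b, the pair that carries the signal of the B cell receptor into the cell. The J chain, listed under its older symbol Igj (Jchain in RefSeq), links the units of secreted IgM and IgA. HSCs have not rearranged the immunoglobulin loci, and B cells and plasma cells are the usual source of transcripts of rearranged immunoglobulin genes in marrow. Whether the reads here came from rearranged loci or from such cells was not tested.

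The constant and variable genes lie at the heavy and kappa chain loci and the other genes elsewhere in the genome. In GENCODE M21 on GRCm38, Ighm (chr12:113418558-113422730), Igha (chr12:113254830-113260236) and Ighv1-82 (chr12:115952538-115953005) are constant and variable genes of the heavy chain locus, all on the minus strand. Igkc (chr6:70726435-70726966) and Igkv1-122 (chr6:68016718-68017488) belong to the kappa light chain locus on the plus strand. Jchain lies at chr5:88519809-88527891 on the minus strand, Cd79a at chr7:24897381-24902197 on the plus strand and Cd79b at chr11:106311341-106314762 on the minus strand, each as a protein-coding gene outside the antigen receptor loci. Reads were 76 bases long, and no stretch of that length in the transcripts of Ighm, Igha, Igkc, Ighv1-82, Igkv1-122, Igj or Cd79b was found in another annotated gene. For Cd79a, 4.3% of the stretches were also in Gm32220.

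The kappa variable genes show best how far reads of close relatives can be told apart, so a stretch of 1 read length is given for the member Igkv1-122 and for its tested relatives Igkv1-110 and Igkv1-117. The stretch is the one in which Igkv1-122 and Igkv1-110 differ most, from GENCODE M21 transcripts on the plus strand of GRCm38, and capitals mark the 10 positions at which the 3 genes are not all alike. They lie at chr6:68017275-68017350, chr6:68271054-68271129 and chr6:68121614-68121689, within the V exon of each gene.
Igkv1-122: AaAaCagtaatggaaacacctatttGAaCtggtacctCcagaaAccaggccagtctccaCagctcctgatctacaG
Igkv1-110: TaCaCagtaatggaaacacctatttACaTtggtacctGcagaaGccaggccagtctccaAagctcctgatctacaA
Igkv1-117: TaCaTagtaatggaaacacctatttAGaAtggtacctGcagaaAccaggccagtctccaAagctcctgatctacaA
Igkv1-122 and Igkv1-110 differed at 9 positions in this stretch and at 23 positions in the whole V exon, an identity of 93.3%. Igkv1-110 was closer to Igkv1-117, with 96.8% identity, and 30.4% of its read-long stretches were found unchanged in that gene. Of 238 read-long stretches of the Igkv1-122 V exon, 26 differed from Igkv1-110 by 2 or fewer bases, so an aligner that tolerates mismatches could place some reads on either gene.

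The heavy chain member Ighv1-82 has its nearest relative in Ighv1-80, which was too low to be tested, and the pair is shown in the same way on the minus strand, at chr12:115952763-115952838 and chr12:115912569-115912644. Capitals mark the 4 positions that differ.
Ighv1-82: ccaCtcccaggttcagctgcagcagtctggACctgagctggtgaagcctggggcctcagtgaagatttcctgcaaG
Ighv1-80: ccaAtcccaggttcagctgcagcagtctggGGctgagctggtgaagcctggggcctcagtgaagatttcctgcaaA
The V exons of this pair differed at 12 positions in all, and 103 of 230 read-long stretches differed by 2 or fewer bases. A value listed for a single V gene can thus hold reads of a relative.

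The authors quantified the reads as regularized log values and deposited a linear signal for each gene and sample. Regularization draws the values of weakly read genes towards their mean, so that no gene is at a true 0 and differences of low genes are understated. The files hold no counts, and the depth behind each value is unknown. Values below are this linear signal, in the order of replicates 1 to 3, and differences are on its log2 scale as Ltbr-/- minus Ly5.1. Of the 26216 symbols, 13108 had a mean in the upper 50% and were tested with limma. All 8 genes passed this filter and entered the fit, but their p-values enter only the counts over all tested symbols. The knockout was checked first: Ltbr was 24.2, 26.4 and 23.1 in the Ltbr-/- samples and 564.0, 548.7 and 522.0 in the Ly5.1 samples.

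The 3 constant genes were lower in every Ltbr-/- sample than in every Ly5.1 sample. Ighm, the heavy chain of IgM, was 718.4, 679.7 and 574.6 in Ltbr-/- cells and 1253, 1332 and 1455 in Ly5.1 cells. The highest Ltbr-/- value was well below the lowest Ly5.1 value, and the log2 difference was -1.04. Igha, the heavy chain of IgA, was 436.7, 459.5 and 514.0 in Ltbr-/- cells and 866.3, 810.9 and 965.7 in Ly5.1 cells, a log2 difference of -0.91. The Ltbr-/- sample with the lowest Ighm, replicate 3, had the highest Igha of its group. Igkc, the constant part of the kappa light chain, was 204.2, 209.3 and 207.8 in Ltbr-/- cells and 511.4, 414.0 and 514.6 in Ly5.1 cells, a log2 difference of -1.21. Its Ltbr-/- samples spanned 0.036 on the log2 scale and its Ly5.1 samples 0.31. The number of reads behind the near-equal Igkc values is unknown. The size of the Igkc difference, and of ratios with Igkc below, is therefore no measure of transcript amount.

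The variable genes followed the same order of groups. Igkv1-122 was 72.0, 72.8 and 72.6 in Ltbr-/- cells and 142.5, 150.9 and 153.9 in Ly5.1 cells, a log2 difference of -1.04. Ighv1-82 was 58.4, 58.8 and 58.7 in Ltbr-/- cells and 99.7, 90.7 and 95.3 in Ly5.1 cells, a log2 difference of -0.70. In both genes the 3 Ltbr-/- values were nearly equal, and the groups did not overlap.

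The J chain differed in the same direction but by less, and the Cd79 genes lay the other way. Igj, the J chain, was 50.7, 51.2 and 55.5 in Ltbr-/- cells and 57.1, 61.4 and 59.1 in Ly5.1 cells, a log2 difference of -0.18. Cd79a was 298.5, 273.5 and 304.3 in Ltbr-/- cells and 194.0, 211.8 and 167.7 in Ly5.1 cells, so that it was higher in each Ltbr-/- sample, with a log2 difference of 0.62. Cd79b was 300.6, 356.6 and 300.3 in Ltbr-/- cells and 290.5, 283.1 and 267.9 in Ly5.1 cells, a log2 difference of 0.18. The Cd79b groups lay side by side without overlap, and without Ltbr-/- replicate 2 the difference was 0.0999.

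**Figure D1:**
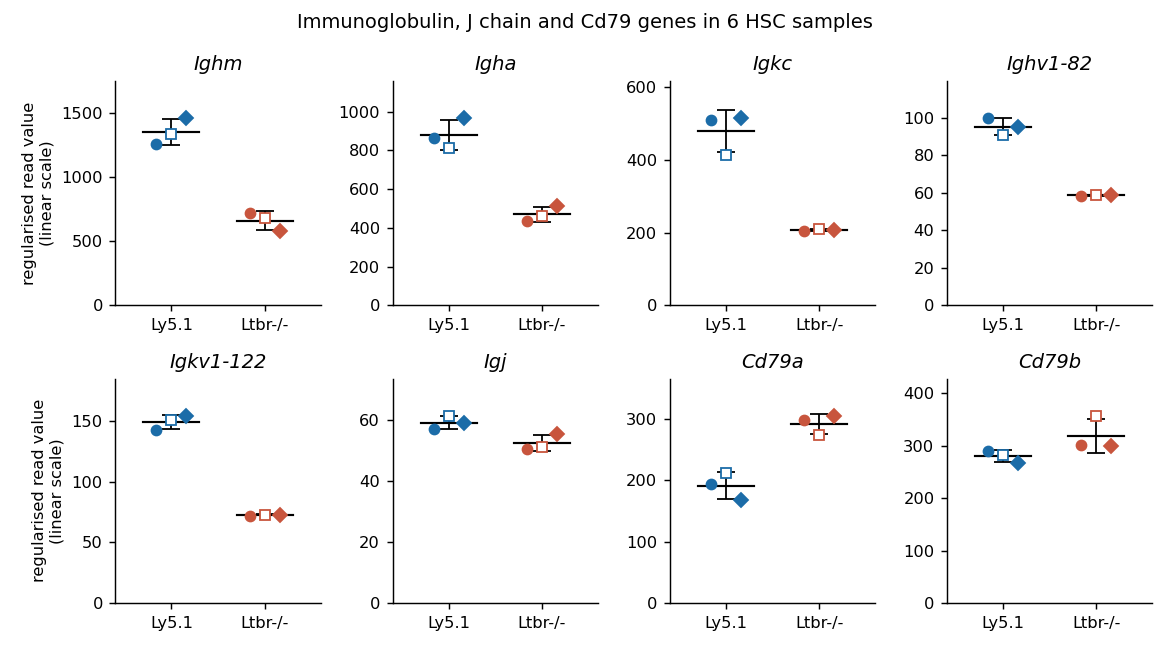
Regularised read value (linear scale, each panel with its own axis from 0) of the 8 genes in each sample, with circles, open squares and diamonds for replicates 1, 2 and 3 and black lines for the mean ± SD (n = 3 per group). Ighm, Igha, Igkc, Ighv1-82 and Igkv1-122 lie lower in Ltbr-/- cells with a log2 difference between -1.21 and -0.70, Igj differs by -0.18, and Cd79a and Cd79b lie higher.

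The opposite order of immunoglobulin and Cd79 genes was visible within each sample as a ratio of their values. Ighm over Cd79a was 2.41, 2.49 and 1.89 in the Ltbr-/- samples and 6.46, 6.29 and 8.68 in the Ly5.1 samples. Igkc over Cd79a was 0.684, 0.765 and 0.683 against 2.64, 1.95 and 3.07. These ratios compare each gene with itself across samples and are no measure of which transcript was more abundant. Ratios between immunoglobulin constant genes overlapped between the groups: Ighm over Igkc was 3.52, 3.25 and 2.76 in Ltbr-/- cells and 2.45, 3.22 and 2.83 in Ly5.1 cells, and Igha over Ighm was 0.608, 0.676 and 0.895 against 0.691, 0.609 and 0.664. Igj over Igha was 0.116, 0.111 and 0.108 in Ltbr-/- cells and 0.0659, 0.0757 and 0.0612 in Ly5.1 cells. Like the other ratios, it restates the differences of its 2 genes, here -0.18 and -0.91. Regularization understates the difference of the lower gene Igj, so whether the ratio of the 2 transcripts changed was not tested.

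Across the 13108 tested symbols the background was uneven. With an adjusted p under 0.05 in limma and a fold of at least 1.5, 8 symbols (0.0610%) were called lower in Ltbr-/- cells and 356 (2.72%) higher, 2.78% in either direction. The lower calls include the 5 constant and variable genes described here, which were selected on this contrast, so their place among the calls is no result. Groups without overlap were common, with 13.5% of tested symbols lower and 17.0% higher in all 3 Ltbr-/- samples. Among the 8 genes, the groups did not overlap in 6 that were lower and 2 that were higher, a count fixed by how the genes were chosen. Ordered from the lowest log2 difference, Igkc was number 3, Igkv1-122 number 4, Ighm number 5, Igha number 6 and Ighv1-82 number 7 of the 13108, after Ltbr and Ctse, the gene of cathepsin E. Igj was number 1512, and Cd79a and Cd79b stood near the other end, at 12783 and 11181.

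Other genes of the same loci were taken by symbol, without regard to their values. The tables held 259 immunoglobulin symbols, of which 254 were not among the 8 genes. Of those 254, 182 had the same value in all 6 samples, 62 varied but lay under the filter, and 10 were tested. By the adjusted p and a fold of at least 1.5, 0 of the 10 were called in limma, and at an unadjusted p under 0.05 it found 7 lower and 2 higher, beside 11.4% of all tested symbols lower and 15.7% higher. At an adjusted p under 0.05 alone, 6 were lower in Ltbr-/- cells and 1 was higher, beside 4.18% of all tested symbols lower and 10.6% higher. The median log2 difference of the 10 was -0.18, and that of all tested symbols was -0.011.

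The 6 lower genes were 3 variable genes and 3 joining segments. All 6 had near-equal Ltbr-/- values that may rest on few or no reads, as described below. Their SEs and p-values may therefore not measure a spread between pools in that group. Ighv2-9, a heavy chain variable gene, was 47.4, 47.6 and 47.5 in Ltbr-/- cells and 74.9, 70.5 and 60.2 in Ly5.1 cells, with a log2 difference of -0.52 ± 0.0695 (SE, limma adjusted p = 2.86e-07). Without Ly5.1 replicate 3 its difference was -0.61, past the fold of 1.5. Igkv3-7, a kappa variable gene, was 43.9, 44.0 and 44.0 against 63.8, 59.4 and 58.1, a log2 difference of -0.46 ± 0.061 (SE). Igkv4-59 fell by 0.36 and the heavy chain joining segment Ighj4 by 0.34 on the log2 scale. Igkj2 and Igkj1, joining segments of the kappa locus, fell by 0.20 and 0.16, and with eBayes run without a trend these 2 no longer passed, which left 4 lower genes. Ighj4, Igkj2 and Igkj1 are 54, 43 and 38 bases long, shorter than a read, so any full-length read counted for them reaches past the segment.

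One kappa variable gene went the other way. Igkv1-110, the relative of Igkv1-122 shown above, was 122.9, 137.3 and 135.6 in Ltbr-/- cells and 97.8, 86.5 and 91.4 in Ly5.1 cells, a log2 difference of 0.52 ± 0.082 (SE, limma adjusted p = 6.7e-06). Igkv1-117, which shares 30.1% of its read-long stretches with Igkv1-110, was 16.7, 16.6 and 16.3 against 15.6, 16.1 and 16.1, a log2 difference of 0.053 (limma adjusted p = 0.323). So 2 variable genes with 93.3% identity lay on opposite sides, by -1.04 for Igkv1-122 as a description and by 0.52 for Igkv1-110. The remaining tested genes, Igkj4 at -0.15 and Ighv1-75 at 0.13, had adjusted p-values of 0.102 and 0.119 in limma.

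**Figure D2:**
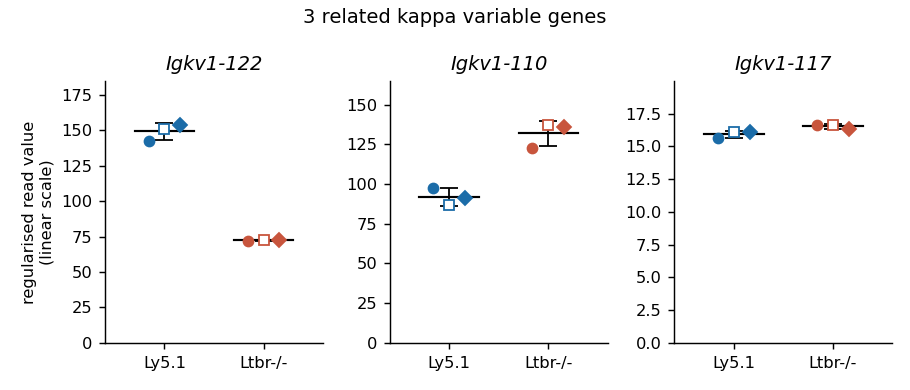
Regularised read value (linear scale, each panel from 0) of 3 related kappa variable genes in each sample, with symbols as in the plot of the 8 genes and black lines for the mean ± SD (n = 3 per group). Igkv1-122 lies lower in Ltbr-/- cells (72.0 to 72.8 against 142.5 to 153.9), Igkv1-110 higher (122.9 to 137.3 against 86.5 to 97.8), and Igkv1-117 stays between 15.6 and 16.7.

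The 3 Ltbr-/- values of many segments were closer to each other than usual, a feature noticed after the values were seen. Over the 12 tested variable and joining segments, members included, the range of the 3 Ltbr-/- log2 values was 0.02 or less in 8 segments, and the range of the Ly5.1 values in 0. Among 3177 other tested genes whose mean lay between 16.2 and 112, the span of the segments, 2.55% had so small a range in Ltbr-/- cells and 2.23% in Ly5.1 cells. The median range of these other genes was 0.109 in Ltbr-/- cells and 0.115 in Ly5.1 cells. In all 8 narrow segments Ltbr-/- replicate 1 was lowest and replicate 2 highest, an order found in 12.3% of the other genes with so small a range. Igkv1-122 spanned 0.016 and Ighv1-82 0.009 in Ltbr-/- cells, against 0.11 and 0.14 in Ly5.1 cells. Igkc had the same order of its Ltbr-/- samples. Some segments near the smallest value in the data had it too, such as Igkv4-53 at 0.25438, 0.25441 and 0.2544 in Ltbr-/- cells. The number of reads behind the narrow values was not available, so few reads and no reads cannot be told apart. Whether these Ltbr-/- values, or those of Igkc, rest on any reads was not tested, so their levels and the sizes of their differences are no measure of transcript amount. The 8 narrow segments were Igkv1-122, Ighv1-82 and the 6 genes given above as lower at an adjusted p under 0.05. The limma p-values of those 6 may therefore not measure a spread between pools.

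**Figure D3:**
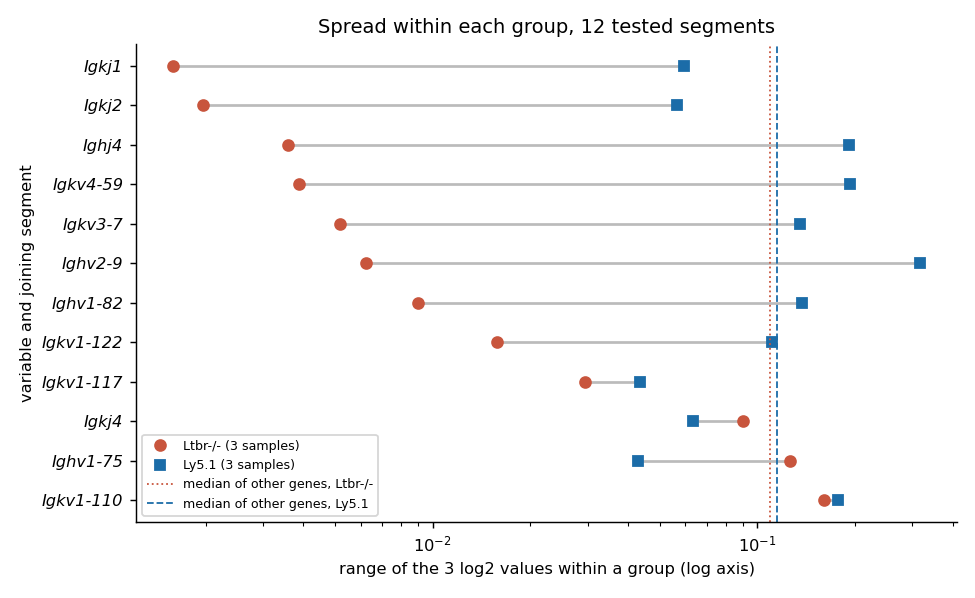
Range of the 3 log2 values within each group (log axis) for the 12 tested variable and joining segments, with circles for Ltbr-/- and squares for Ly5.1, and vertical lines at the median range of other genes of similar mean. In 8 segments the Ltbr-/- range is at or under 0.02, while Igkv1-117, Igkj4, Ighv1-75 and Igkv1-110 have wider Ltbr-/- ranges of 0.029 to 0.16.

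Of the other constant genes, none of 9 passed the filter. Ighd, the heavy chain of IgD, was 2.67 to 2.73 in Ltbr-/- cells and 2.67 to 2.70 in Ly5.1 cells. Iglc1, Iglc2 and Iglc3, the lambda light chain constant genes, lay between 1.46 and 3.94 in all samples, and Ighg2b, an IgG heavy chain, between 1.84 and 1.90. Ighg1, Ighg2c, Ighg3 and Ighe were listed at 1 in all 6 samples. Ighm, Igha and Igkc were thus the constant genes that passed the filter, which does not show how many reads lie behind their values. Among the 62 varying genes under the filter, 6 (9.68%) were lower and 7 (11.3%) higher in all 3 Ltbr-/- samples, beside 2.85% and 24.7% of all 4074 varying symbols under the filter. Their differences were small, from -0.09 for Ighv1-34 to 0.03.

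Genes beside the antigen receptor loci were read in the same fit. Within 1 Mb of the heavy chain locus (chr12:113256204-116009954, RefSeq, GRCm38.p6), 26 other genes were tested. Of these, 0 were lower and 1, Adssl1, was higher at an adjusted p under 0.05, and the lowest difference was -0.23. Limma gave 2 of the 26 as lower at an unadjusted p under 0.05. Beside the kappa locus (chr6:67555636-70726754), 0 of 17 tested genes were lower, also at an unadjusted p under 0.05 in limma, and Gng12, Serbp1 and the ribosomal protein pseudogene Rpl34-ps1 were higher. The lowest difference there was -0.19, smaller than that of any of the constant or variable genes among the 8.

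Markers of B cells and plasma cells were then examined, since these cells normally make transcripts of rearranged immunoglobulin genes. The B lineage factors Pax5 and Ebf1 were 1.70 to 1.72 and 2.12 to 2.19 in all samples. Ms4a1, which encodes CD20, was 1.15 to 1.17. Of the genes of early B cells, the recombinase gene Rag1 was 3.19 to 3.27 and the surrogate light chain genes Vpreb1 and Igll1 were 9.20 to 9.87 and 2.54 to 2.59. None of these 6 genes passed the filter. Their values overlapped between the groups, except for Ebf1, which was 2.12 in the 3 Ly5.1 samples and marginally higher in each Ltbr-/- sample.

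Of the defining markers of plasma cells, Xbp1 had high values and the others were low, while other genes of the plasma cell list, such as the chaperone gene Hsp90b1 (12380 to 13843 over all samples), were high as well. Sdc1, which encodes syndecan-1, was 27.6, 27.7 and 27.6 in Ltbr-/- cells and 29.3, 28.0 and 28.6 in Ly5.1 cells, a log2 difference of -0.051 (limma adjusted p = 0.506). Prdm1, the plasma cell factor Blimp-1, was 6.17 in all 3 Ltbr-/- samples and 6.29 to 6.59 in the Ly5.1 samples, under the filter. Both were thus lower in each Ltbr-/- sample, by 0.051 on the log2 scale. Irf4 was 9.57 to 9.91 and 9.56 to 10.5, Mzb1 (listed under an older symbol) 10.7 to 11.6 and 10.5 to 10.8, and Pou2af1, the coactivator of octamer factors, 2.94 and 2.94 to 3.04. The Ltbr-/- values of Prdm1 and Pou2af1 spanned 0.00047 and 0.00021 on the log2 scale, as narrow as those of the segments above. Differences of genes this low are understated by the regularization, so a small value does not show that they barely differ. Xbp1, a factor of the secretory programme that many cell types use, rose from 661.5, 839.1 and 759.2 in Ly5.1 cells to 955.3, 870.0 and 1005 in Ltbr-/- cells (log2 difference 0.33 ± 0.0951 SE, limma adjusted p = 0.0145). Its direction was opposite to that of the immunoglobulin genes, and its adjusted p no longer passed without Ltbr-/- replicate 3 (0.28) or Ly5.1 replicate 1 (0.24). In bulk samples, fewer cells of a type and less RNA per cell cannot be told apart.

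The wider lists held genes in both directions. The 5 lists of B lineage and plasma cell genes held 77 different genes, and 49 of them were tested. By the adjusted p and fold, 0 were called lower and 1 higher by limma, which gave 7 lower and 7 higher at an unadjusted p under 0.05, counts near the background of 11.4% and 15.7%. At an adjusted p under 0.05 alone 4 were lower and 5 higher. Their median log2 difference was -0.041, beside -0.011 for all tested symbols. The 1 call was Fcgr2b, the inhibitory Fc receptor for IgG, which was 914.6, 896.5 and 917.3 in Ltbr-/- cells and 441.6, 552.4 and 617.5 in Ly5.1 cells (log2 difference 0.77 ± 0.10 SE, limma adjusted p = 1.57e-07). Like Cd79a, it was higher in each Ltbr-/- sample.

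Among 20 tested genes of B cell receptor signalling and its coreceptors, Fcgr2b was the 1 gene past an adjusted p under 0.05. The kinases that act below Cd79a and Cd79b were well read and did not pass the test: Syk at -0.23 (limma adjusted p = 0.0717), Btk at 0.17 (0.168) and Lyn at -0.01 (0.954). The phospholipase gene Plcg2 was at -0.07 (0.584), and the adaptor gene Blnk, with values of 16.5 to 18.1, at 0.003 (0.975). Of 6 tested early B cell genes, Bcl11a fell by 0.31 (limma adjusted p = 0.0108).

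Of 9 tested mature B cell genes, 3 fell and 1 rose at an adjusted p under 0.05, none of them past the fold of 1.5. Those that fell were Cd74, H2-Aa and H2-Ab1 (log2 differences -0.42, -0.44 and -0.36), which encode the invariant chain and 2 chains of MHC class II and are used by all antigen-presenting cells. Cd37, a tetraspanin, rose by 0.44. Of 9 tested plasma cell genes, Xbp1, Ssr4 (0.51) and Sec11c (0.33) rose and 0 fell, also at an unadjusted p under 0.05 in limma, and Ssr4 and Sec11c act in protein entry into the endoplasmic reticulum. Of 7 tested regulators of immunoglobulin transcription, 0 passed in either direction in limma and 1 was higher at an unadjusted p under 0.05, with Tcf3 at -0.004, Pou2f2 at -0.02 and Spi1 (listed under an older symbol) at 0.23 (limma adjusted p = 0.0664).

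**Figure D4:**
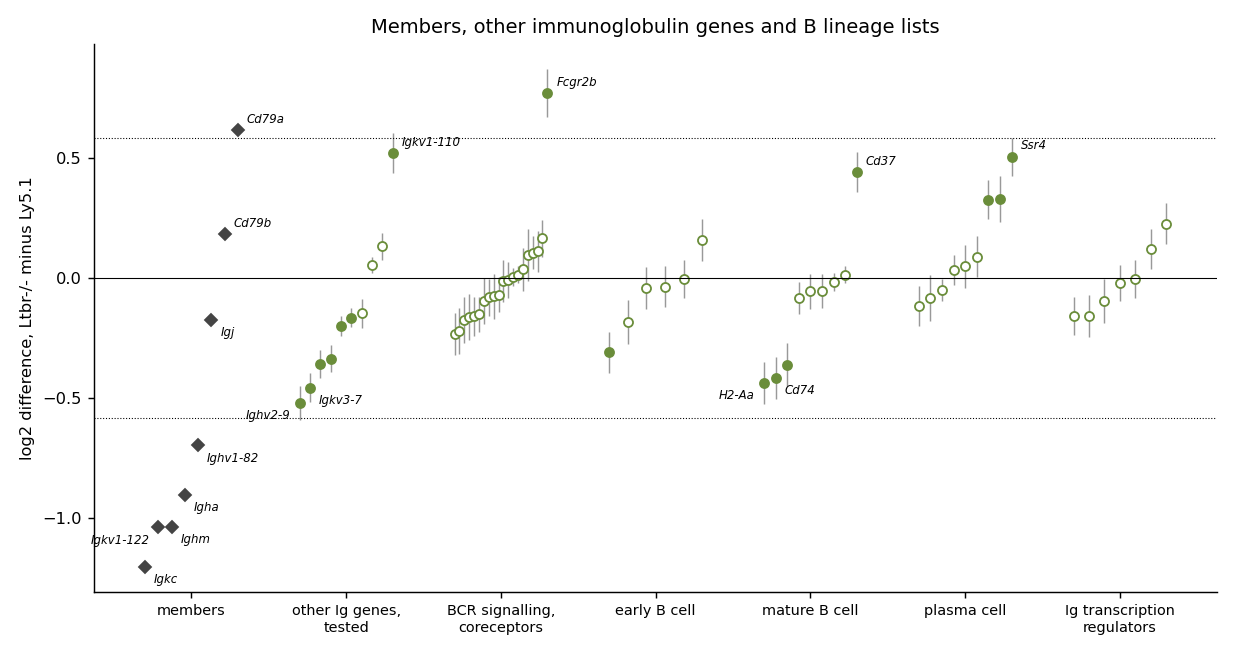
Log2 difference (Ltbr-/- minus Ly5.1) of the 8 genes (diamonds, no test), the 10 other tested immunoglobulin genes and the tested genes of 5 lists, with bars for the limma SE, filled circles for an adjusted p under 0.05 and dotted lines at a fold of 1.5. The diamonds of 5 genes lie below the lower dotted line, no gene of the other groups does, and Fcgr2b at 0.77 is the 1 listed gene above the upper line.

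Markers of other cell types were read beside these values. The HSC markers Kit, Slamf1 and Procr were 5179 to 6103, 259.8 to 328.6 and 549.0 to 630.4 over all samples, and Cd48, which the sort excluded, was 20.1 to 28.9. Of 8 HSC markers, Ly6a alone passed at an adjusted p under 0.05 (-0.39). All 7 granulocyte markers were lower in Ltbr-/- cells at an adjusted p under 0.05 in limma, beside 4.18% of all tested symbols. The log2 differences of these markers ran from -0.57 for Camp to -0.12 for Ly6g. Their summed level was 35907 to 36315 in the Ltbr-/- samples and 47462 to 51658 in the Ly5.1 samples. Of 5 erythroid markers Hba-a1 rose (0.99), and of 4 tested macrophage markers Emr1 (0.83) and Cd68 (0.28) rose, while Csf1r was lower in each Ltbr-/- sample at -0.27 (limma adjusted p = 0.0593). The adjusted p of Cd68 no longer passed when any 1 sample other than Ly5.1 replicate 2 was left out (0.20 to 0.29), nor that of Ly6g without Ltbr-/- replicate 2 or 3 or Ly5.1 replicate 1 or 2 (-0.11 to -0.09). Of 2 tested T cell markers, 0 passed in limma, and 0 at an unadjusted p under 0.05. The part of granulocytes or other cells in the immunoglobulin values was not tested.

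The tested genes outside the 8 whose pattern over the 6 samples was nearest to Ighm were Mfsd2b, Camp, Smap2, Ptprv and Ssbp2. Their root mean square log2 distance from Ighm, after centring each gene on its mean, was 0.26 to 0.29. Igkv1-122 was nearer, at 0.105, and so were Igkc at 0.174 and Igha at 0.187, while Igj was at 0.456 and Cd79a at 0.85. The genes nearest to Igkc were Ptprv, Camp, Mfsd2b, Ppic and Ssbp2, at 0.32 to 0.36. Camp, the gene of the antimicrobial peptide cathelicidin, was 4085, 3919 and 4059 in Ltbr-/- cells and 5781, 5652 and 6512 in Ly5.1 cells. Ptprv, a receptor tyrosine phosphatase gene, was 733.4, 689.1 and 781.5 against 1239, 1117 and 1031. With 3 samples per group these distances mostly reflect the size of the group difference.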

How the data were processed

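Single-end reads of 76 bases were made from TruSeq Stranded mRNA libraries of 20 ng RNA. SeqMan NGen was used by the authors for assembly and ArrayStar for quantification, and they deposited 1 linear signal per gene and sample. Regularized log values of Bioconductor are the measure that the methods name, and the submitters' processing notes name DESeq2, GRCm38 and mm10. That the signal is the power of 2 of a regularized log was taken from the values. It includes size factors and shrinkage, gives no counts, and leaves depth unknown.

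Of 26595 rows, repeated symbols kept the row with the highest mean. The log2 signal of symbols in the upper 50% by mean was fitted with limma 3.58.1 (R 4.3.3, lmFit, eBayes with trend, Benjamini-Hochberg over all tested symbols). Calls needed a fold of 1.5 or more besides an adjusted p under 0.05, as in the study. The 8 genes entered this fit, but since this contrast had selected them their p-values are not reported and enter only the counts over all tested symbols. Members and lists were chosen with earlier results of these data known. Beyond the 8 genes, the text names tested immunoglobulin genes that were called or had the 3 lowest or 3 highest differences, called genes and defining markers of each list, Ltbr, and the 5 genes nearest to Ighm and to Igkc; further genes were chosen after their values were seen. The lists covered B cell receptor signalling, early and mature B cells, plasma cells, regulators of immunoglobulin transcription and markers of HSCs, granulocytes, T cells, erythroid cells and macrophages. Sequences and shared stretches came from GENCODE M21 transcripts. The samples are pools of chimeras, and p-values measure the spread between 3 such pools per group. For the segments with near-equal Ltbr-/- values, which may rest on no reads, the p-values may not measure this spread. Alternatives were the replicate block, filters, scaling, a pseudocount, variance models, thresholds, the mean over rows of a symbol, and leaving out each sample.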

Additional observations from a re-analysis of the deposited data

How the results depend on the processing

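The 8 genes kept the sign of their difference under quantile normalization, centring, the pseudocount and the mean over rows of a symbol. They moved by less than the pooled SD of the log2 values of both groups. The replicate block cannot change a difference in this balanced design. As the groups of the 8 genes did not overlap, leaving out 1 sample could not change a sign, nor move a difference past that SD. These outcomes are a description of genes selected on this contrast. Leaving out 1 sample gave -1.11 to -0.94 for Ighm, -0.97 to -0.84 for Igha, -1.31 to -1.15 for Igkc, -0.73 to -0.67 for Ighv1-82, -1.07 to -1.02 for Igkv1-122, -0.22 to -0.15 for Igj, 0.53 to 0.69 for Cd79a and 0.10 to 0.22 for Cd79b. The 364 calls over all symbols were 1936 by adjusted p alone, 42 at a fold of at least 2, and 342 to 407 with 1 sample left out. The 8 lower calls were 28 after quantile normalization, 4 in the upper quartile of symbols (fewer genes tested), 548 by adjusted p alone, 5 at a fold of at least 2, and 8 to 12 with 1 sample left out. Of the other immunoglobulin genes, 0 were called, 7 by adjusted p alone and 1 (Ighv2-9) without Ly5.1 replicate 3. The upper quartile held none of them, so that 0 were lower and 0 higher there. Of the B lineage and plasma cell lists, the 1 call became 9 by adjusted p alone and 0 at a fold of at least 2, and the 9 genes at an adjusted p under 0.05 became 15 after quantile normalization. Igkj1 and Igkj2 passed no longer when eBayes had no trend. Same-numbered samples showed little shared deviation (r = 0.0314, -0.0052 and 0.0899 for replicates 1, 2 and 3). With 3 samples per group this cannot exclude that the numbers pair them, and the labels do not say. With the replicate block 364 symbols were called, 8 of them lower, and 0 other immunoglobulin genes. Shrinkage, unknown depth and 3 pools per group limit what can be said of low genes.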

Other observations

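T cell receptor genes, also taken by symbol, showed another pattern. Of 224 symbols, 177 did not vary over the 6 samples and 10 were tested. Of these, 4 were called higher and 0 lower in Ltbr-/- cells, beside 2.72% and 0.0610% of all tested symbols. At an adjusted p under 0.05 alone in limma, 7 were higher and 0 lower, beside 10.6% and 4.18%. The 4 called genes were constant genes of the gamma chain, which pairs with the delta chain on gamma delta T cells. Tcrg-C1 was 1674, 1987 and 1791 in Ltbr-/- cells and 816.6, 729.7 and 916.9 in Ly5.1 cells, a log2 difference of 1.15 ± 0.0928 (SE). Tcrg-C4, Tcrg-C3 and Trgc2 rose by 1.12, 1.03 and 1.02. These genes are close relatives, and the overlap of their reads was not computed. Of the markers of T cells, Cd3g was 15.9 to 17.3 in all samples and Lck did not pass the test (-0.06, limma adjusted p = 0.735). The beta chain gene Trbc1 was 26.7 to 28.3 in all samples, with a log2 difference of -0.02.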
